A study of Mus musculus with 22 samples.

Results

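The antimicrobial products of Paneth cells were examined as 8 transcripts in the small intestine of mice with a normal or a poorly dimerising glucocorticoid receptor (GR), drinking normal water or zinc. The 8 genes were Lyz1, Mmp7, Ang4, Pla2g2a, Itln1, Defa17, Defa22 and Defa24, chosen as a set of Paneth cell products and matched by Ensembl identifier among the 54838 genes of the count table. All 8 were found there, and all 8 passed the filter on low counts. GRWT mice carried the wild-type receptor, and GRDim mice were homozygous for a point mutant that forms homodimers less efficiently. Both genotypes came from intercrosses of heterozygous parents on the FVB/NJ background (labelled FVB/N), only females of 8 to 14 weeks were used, and the GRDim mutation is present in every cell of the animal. For 7 days the drinking water was left normal or supplemented with 25 mM ZnSO4. The series design also names dexamethasone, which no sample label mentions, and states 2 sequencing sets without assigning libraries to them. The conditions held 5 libraries of GRWT on water, 5 of GRWT on zinc, 6 of GRDim on water and 6 of GRDim on zinc. The labels did not state that each library came from a separate animal, so p-values measure the spread between these libraries only.

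Paneth cells are secretory epithelial cells at the base of the small intestinal crypts, between the stem cells, and they are most numerous in the ileum. Their granules hold lysozyme, secreted phospholipase, angiogenin, lectins and alpha-defensins, which damage or bind microbes once they are released into the crypt lumen. Mouse alpha-defensins are made as inactive precursors that the metalloproteinase Mmp7 cleaves, and the granules are also rich in zinc, loaded by the transporter ZnT2 (Slc30a2). In bulk RNA, fewer Paneth cells and less RNA per Paneth cell cannot be told apart.

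The alpha-defensin members are printed first, because reads that mapped to several places were not counted and genes of this family share long stretches of sequence. They lie in the defensin cluster on chromosome 8, each on the plus strand of GRCm38 (mm10). Each has a coding sequence of 279 bases, whose last 107 bases, in the second exon, end in the mature peptide. These 107 bases, read 5′ to 3′ from the GENCODE vM21 transcripts, are shown for Defa17 at chr8:21656532-21656638, Defa22 at chr8:21163046-21163152 and Defa24 at chr8:21735268-21735374. Capitals mark the 42 positions at which the 3 genes are not all alike.
Defa17: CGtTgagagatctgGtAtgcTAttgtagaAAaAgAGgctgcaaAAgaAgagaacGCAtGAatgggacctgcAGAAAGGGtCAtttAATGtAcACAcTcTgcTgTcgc
Defa22: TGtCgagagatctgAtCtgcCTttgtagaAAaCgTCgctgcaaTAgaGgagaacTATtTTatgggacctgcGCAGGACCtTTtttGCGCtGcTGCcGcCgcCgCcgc
Defa24: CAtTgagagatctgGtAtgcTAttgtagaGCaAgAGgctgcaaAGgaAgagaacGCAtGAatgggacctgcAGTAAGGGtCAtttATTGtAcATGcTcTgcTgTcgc
Defa17 and Defa24 differed at 8 of the 107 bases, whereas Defa22 differed from Defa17 at 37 and from Defa24 at 42. Over the whole coding sequence the differences were 12, 51 and 58 bases.

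How much of each transcript could be counted at all was estimated by cutting it into windows of 75 bases and asking which windows occur in no other gene. The read length of the libraries is not given in the sources used here, so windows of 50 and 100 bases were also used. For Defa17, 8.67% of the windows were its own, and 91.3% also occurred in Defa3. For Defa22, 43.8% were its own, and 56.2% also occurred in Defa21. Defa24 was close to unique, at 93.3%. On the reference sequence, the levels of Defa17 and Defa22 are therefore lower bounds set by short stretches of it. The annotation behind the counts may divide these copies in another way. The windows were compared with reference transcripts only, and how far the sequence of these FVB/NJ mice differs from them was not examined. Lyz1 shared its remaining windows with Lyz2, the lysozyme of macrophages, and had 93.8% of its own. Mmp7, whose exons overlap AV064505 on the other strand, had 94.97%, Ang4 99.2%, and Itln1 and Pla2g2a 100%.

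**Figure D1:**
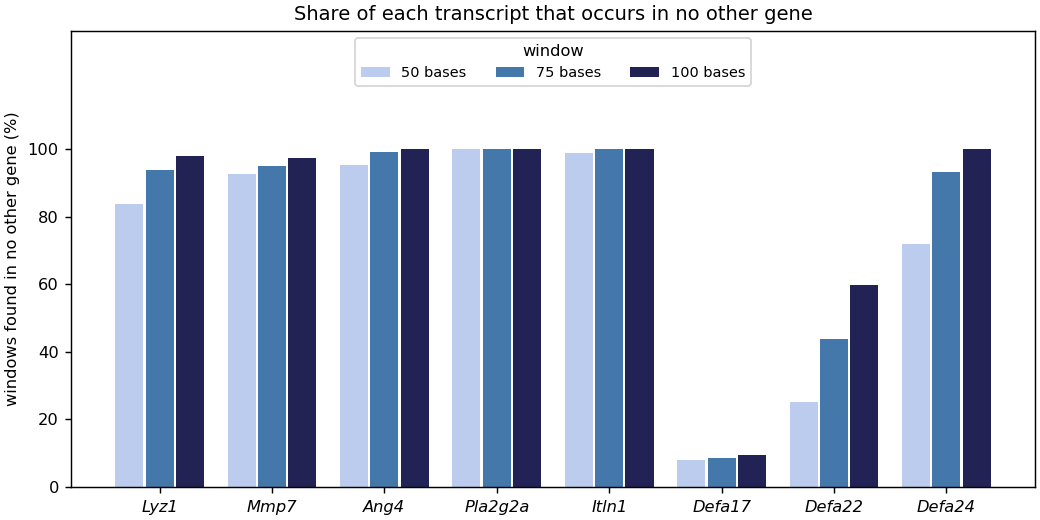
Share of the windows of each member transcript that occur in no other gene, in percent, for windows of 50, 75 and 100 bases (bars). Defa17 stays below 10% at each window length, and Defa22 depends on the length, while Lyz1, Mmp7, Ang4, Pla2g2a and Itln1 lie above 80% throughout.

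The other members were spread over the genome (GRCm38). Lyz1, lysozyme 1, which cleaves bacterial cell walls, lies at chr10:117287797-117292868 on the minus strand. Ang4, angiogenin 4, a secreted ribonuclease with bactericidal activity, lies at chr14:51763878-51773590 on the minus strand. Pla2g2a, group IIA secreted phospholipase A2, which attacks bacterial membranes, lies at chr4:138831857-138835186 on the plus strand. Its GENCODE class is polymorphic pseudogene, because the gene is inactive in some mouse strains. Itln1, intelectin 1, a lectin that binds microbial sugars, lies at chr1:171518122-171535294 on the minus strand, and Mmp7 lies at chr9:7692090-7699585 on the plus strand. The defensin gene models span chr8:21655780-21656735 for Defa17, chr8:21162277-21163249 for Defa22 and chr8:21734494-21735471 for Defa24.

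Promoter sequence was at hand for 5 of the 8 members, as RefSeq windows of GRCm38.p6 from 250 bases before to 50 bases after the start site. Defa22 is shown because it held 2 matches to the letters CTTTGNT, searched on both strands as a TCF/LEF motif, the site read by the Wnt pathway that drives Paneth cell maturation. The 250 bases before its start, within chr8:21162027-21162326 on the plus strand, follow 5′ to 3′, with the matches in capitals.
Defa22 upstream: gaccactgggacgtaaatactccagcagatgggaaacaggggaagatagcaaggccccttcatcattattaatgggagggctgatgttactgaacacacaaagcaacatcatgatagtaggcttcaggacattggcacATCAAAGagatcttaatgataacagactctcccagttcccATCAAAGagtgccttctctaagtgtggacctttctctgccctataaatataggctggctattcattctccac
Itln1 and Mmp7 held 1 match each, and Lyz1 and Ang4 held none. Among 32851 promoter windows of the same length, 18.6% held these letters. The glucocorticoid response element, searched by its palindromic consensus, was in none of these members and in 0.475% of all windows. The metal response element letters TGCNCNC occurred in Defa22 and Mmp7 and in 51.0% of all windows. A match is a run of letters and not a tested binding site.

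Library totals ran from 13149951 to 15620744 counts, and a count of 3, the floor used here, equals 0.192 to 0.228 CPM, the count divided by the library total in units of 1000000. Members were described apart for 12 muscle-rich libraries, with 298 to 463 CPM of the smooth muscle myosin Myh11, and 10 muscle-poor ones, with 3.22 to 20.5 CPM. This division did not follow the tissue label, which names 12 libraries ileum and 10 IEC, for intestinal epithelial cells scraped from the flushed distal ileum. Muscle-rich libraries labelled GRDim were IEC on water and ileum on zinc, and muscle-poor ones the reverse, so that within either side the tissue label and zinc cannot be told apart in GRDim. GRWT libraries were, on water and on zinc alike, 2 IEC and 1 ileum among the muscle-rich and all ileum among the muscle-poor. On zinc the tissue label therefore differed with the genotype, wholly among muscle-poor libraries, where GRDim was IEC, and in 2 of 3 GRWT libraries among the muscle-rich, and the zinc by genotype interactions carry the same difference. The bile acid-binding protein Fabp6, a mark of the ileum, reached at least 4387 CPM in every library but GRWT zinc ileum replicate 3, where it was 11.7 CPM. In that muscle-poor library 8 markers of the proximal small intestine summed to 23479 CPM, against at most 634 elsewhere, so the members' main test results that include it are also given without it. Pancreatic acinar markers summed to at most 0.152 CPM in any library.

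Per kilobase of exon, in muscle-rich GRWT libraries on water, Defa24 was the most abundant of the 6 members with mostly their own sequence, with 4249.9 ± 581 CPM per kb (SD, n = 3). Lyz1 followed with 3117 ± 431, and the 2 ranges, 3593 to 4696 and 2753 to 3592 CPM per kb, all but touched. Pla2g2a had 1561 ± 164 CPM per kb. Itln1, with 879 ± 143, and Ang4, with 725 ± 76.0, overlapped in their ranges. Mmp7 was the lowest of the 6, with 167 ± 16.6. Defa17 and Defa22, at 267 ± 24.7 and 128 ± 19.9 CPM per kb, are lower bounds and cannot be placed in this order. In muscle-rich GRDim libraries on water the order of the 6 changed at 1 place, with Pla2g2a at 991 ± 43.9 above Lyz1 at 878 ± 72.0 CPM per kb.

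The main question was whether the basal levels differed between GRDim and GRWT mice on normal water. Among muscle-rich libraries, 6 of the 8 members were lower in GRDim at an adjusted p-value under 0.05 and a log2 fold change beyond 0.8, the cut-offs for a call throughout. In this comparison 10.5% of 15947 tested genes were called, 800 higher and 873 lower. The members' median log2 fold change was −1.63, against −0.00 over all genes tested. The level of each of the 8 members in the GRDim libraries lay below its lowest GRWT library, as the plot of levels per library shows. How many of all genes tested separate in this way was not counted, so this order cannot be weighed against them. DESeq2 called 6 members as well, and so did every fit that left out 1 of the 6 libraries compared. With all 22 libraries in 1 fit, edgeR called 4 members when the muscle split was the covariate, beside 5.68% of all genes, and 2 when the tissue label was, beside 1.32%. Without GRWT zinc ileum replicate 3, fits added after the data had been seen called 5 and 4, beside 7.33% and 3.16%.

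**Figure D2:**
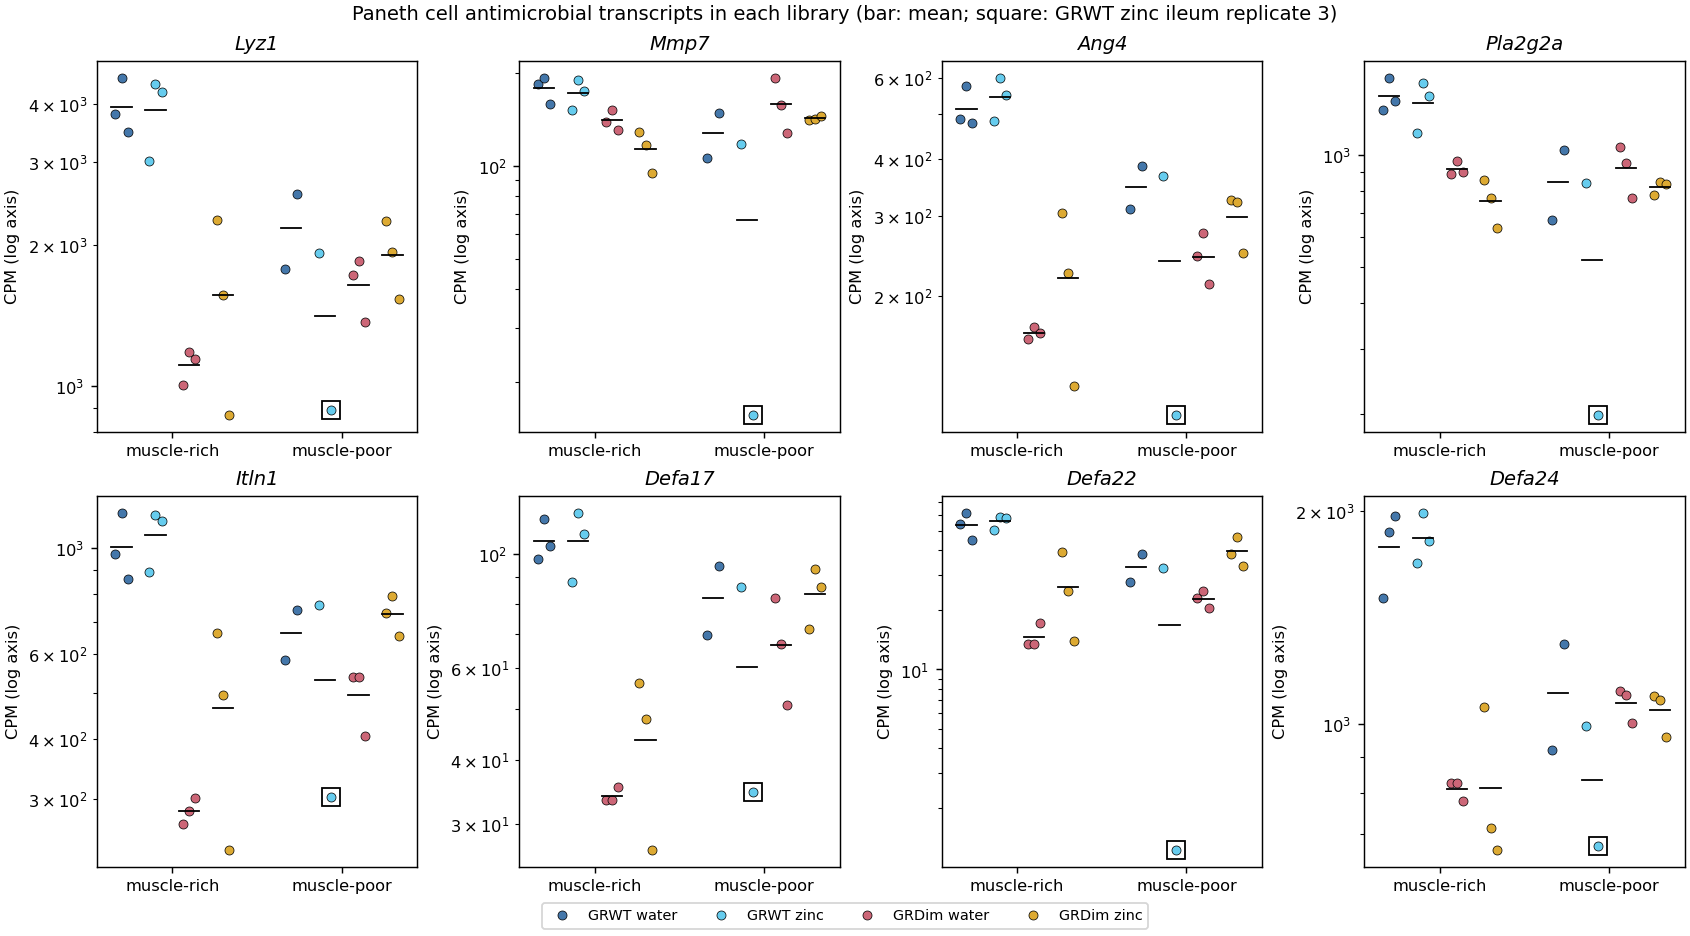
Level of each member in each of the 22 libraries, in CPM on a log axis, by condition (colour) within muscle-rich and muscle-poor libraries. Bars are means and the square marks GRWT zinc ileum replicate 3; muscle-rich GRWT libraries lie highest for Lyz1, at 3019 to 4537 CPM, while muscle-rich GRDim libraries on water lie at 1007 to 1179.8 CPM.

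Among the antimicrobial enzymes, Lyz1 had 3477, 3795 and 4537 CPM in muscle-rich GRWT libraries on water and 1007, 1142 and 1179.8 CPM in GRDim libraries. The groups stood wide apart, with a GRWT mean 3.55 times the GRDim mean. The fitted log2 fold change was −1.83 ± 0.33 (SE, n = 3 and 3, edgeR adjusted p = 0.0024), and between −1.90 and −1.71 when a library was left out. Ang4 had 478, 488 and 576 CPM in GRWT and 161, 166 and 171 CPM in GRDim. The GRDim libraries lay close together and far below GRWT, and the log2 fold change was −1.63 ± 0.28 (edgeR adjusted p = 0.0019). Pla2g2a had 1324, 1403 and 1618 CPM in GRWT and 891, 902 and 966 CPM in GRDim. Its ranges did not overlap either, but the change was smaller, −0.66 ± 0.14 (edgeR adjusted p = 0.0027), and missed the fold cut-off.

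Mmp7, the activator of the defensins, was the member with the smallest difference. It had 158, 184 and 192 CPM in muscle-rich GRWT libraries on water and 130.2, 139 and 152 CPM in GRDim. These ranges were separate by a narrow margin, and with −0.34 ± 0.13 (edgeR adjusted p = 0.0622) Mmp7 was not called. The lectin Itln1 had 860.3, 969 and 1181 CPM in GRWT and 266, 284 and 302 CPM in GRDim. No library of one genotype came near the other, and the log2 fold change was −1.82 ± 0.34 (edgeR adjusted p = 0.0033).

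The alpha-defensins fell together. Defa17 had 97.6, 103 and 117 CPM in GRWT and 33.4, 33.4 and 35.3 CPM in GRDim, a log2 fold change of −1.64 ± 0.25 (edgeR adjusted p = 0.0010). Defa22 had 45.1, 54.1 and 61.7 CPM in GRWT and 13.4, 13.4 and 17.2 CPM in GRDim, a log2 fold change of −1.87 ± 0.33 (edgeR adjusted p = 0.0024). Defa24 had 1505, 1869 and 1968 CPM in GRWT and 778, 825 and 825 CPM in GRDim, a log2 fold change of −1.14 ± 0.18 (edgeR adjusted p = 0.0007). In each of these genes the GRDim libraries were tightly grouped and below every GRWT library. Defa24, the member with the most sequence of its own among the defensins, showed the smallest fold of the 3, with a GRWT mean 2.20 times that of GRDim, against 3.11 for Defa17 and 3.66 for Defa22.

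Other markers moved with this comparison, in which 10.5% of all genes tested were called. All 5 ileal segment markers (Fabp6, Slc10a2, Fgf15, Slc51a and Slc51b) had a lower fitted value in muscle-rich GRDim on water, 0 of them was called by edgeR, and 4 had an unadjusted p under 0.05. They summed to 6117 to 7590.2 CPM, against 9897 to 11580.0 CPM in GRWT on water. Goblet cell markers summed to 9543 to 10313 CPM, against 13821 to 13961 CPM in GRWT, and 1 of these 8 was called, Zg16, a secreted lectin of goblet cells, with −0.90 ± 0.09 (edgeR adjusted p = 2.34e-06). The 6 myeloid markers were all higher by sign and summed to 307 to 341 CPM, against 180.0 to 230.0 CPM, with 1 called, the integrin Itgam, at 1.05 ± 0.15 (edgeR adjusted p = 7.41e-05). The 10 smooth muscle markers were all lower by sign, with 0 called by edgeR and 8 at an unadjusted p under 0.05, and summed to 1927 to 2156 against 2492 to 2740 CPM. Epithelial markers were split evenly, 5 higher and 5 lower, with 0 called and 6 at an unadjusted p under 0.05. Scaling the libraries to these epithelial markers left 6 members called. The part of the other lists in the fall of the members was not tested.

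**Figure D3:**
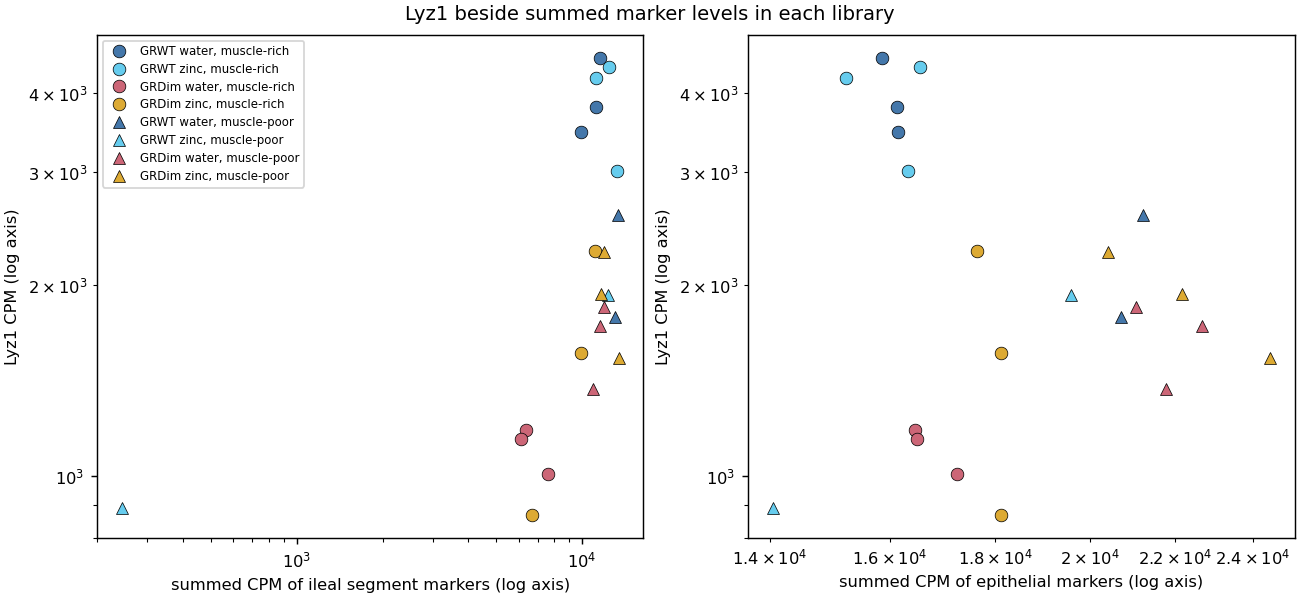
Lyz1 in each library, in CPM, against the summed CPM of 5 ileal segment markers (left) and of 10 epithelial markers (right), on log axes, with circles for muscle-rich and triangles for muscle-poor libraries. The library at 244 CPM of ileal markers is GRWT zinc ileum replicate 3, and muscle-rich GRDim libraries on water lie at 6117 to 7590.2 CPM with the lowest Lyz1 apart from GRDim zinc ileum replicate 3 and that library.

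On zinc, the same genotypes differed in the same direction among muscle-rich libraries, in a comparison added after the data had been seen and between GRDim libraries labelled ileum and GRWT libraries of which 2 of 3 were labelled IEC. Here 7 of 8 members were called lower in GRDim, against 4.4% of all genes, and the member median was −1.16. With all 22 libraries in 1 fit, however, 0 of these calls were left, both when the muscle split was the covariate and when the tissue label was, and Mmp7 turned from −0.58 to 0.031 and 0.0048. Without GRWT zinc ileum replicate 3 these fits called 1 member, Ang4, and 0 members, beside 2.39% and 0.136% of all genes, and Mmp7 was at −0.30 and −0.25. These are other libraries than those on water, but they share 1 fit with them. Lyz1 had 3019, 4229 and 4399 CPM in GRWT on zinc and 869, 1560.2 and 2254 CPM in GRDim on zinc. The GRDim libraries were far more scattered than on water, yet none reached a GRWT library, and the log2 fold change was −1.29 ± 0.32 (edgeR adjusted p = 0.0248). Pla2g2a, which missed the cut-off on water, had 1147, 1450.1 and 1565 CPM against 636, 765 and 859.8 CPM, a log2 fold change of −0.86 ± 0.14 (edgeR adjusted p = 0.0014).

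The remaining members on zinc followed. Ang4 was at −1.29 ± 0.28 (edgeR adjusted p = 0.0132), Itln1 at −1.17 ± 0.34 (adjusted p = 0.0437), Defa17 at −1.26 ± 0.25 (adjusted p = 0.0089), Defa22 at −1.09 ± 0.32 (adjusted p = 0.0448) and Defa24 at −1.16 ± 0.18 (adjusted p = 0.0017). Mmp7 had 151, 175 and 189.7 CPM in GRWT and 94.5, 117 and 129 CPM in GRDim, and with −0.58 ± 0.13 (edgeR adjusted p = 0.0122) it stayed under the fold cut-off. For all 8 members the ranges of the genotypes did not overlap, and the share of all genes with such a separation was not counted. The calls were less steady than on water. They numbered 3 without GRWT zinc IEC replicate 5, 4 without GRDim zinc ileum replicate 2 and 4 without GRWT zinc ileum replicate 1, beside 3.74%, 3.75% and 5.21% of all genes. Pla2g2a fell under the fold cut-off, at −0.74, without GRDim zinc ileum replicate 3. Other markers moved with this comparison too. Ileal segment markers summed to 6692 to 11073 CPM in GRDim on zinc, against 11184 to 13207 CPM in GRWT on zinc, proximal markers to 347 to 469 against 527 to 592 CPM, goblet cell markers to 9836 to 11294 against 13369 to 14404 CPM, and epithelial markers to 17644 to 18117 against 15233 to 16544 CPM. None of these sums overlapped between the genotypes, while those of smooth muscle and myeloid markers did. In these 4 lists 0 genes were called by edgeR, with 1 of 5, 2 of 7 tested, 3 of 8 and 5 of 10 at an unadjusted p under 0.05, and their part in the lower member levels was not tested.

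**Figure D4:**
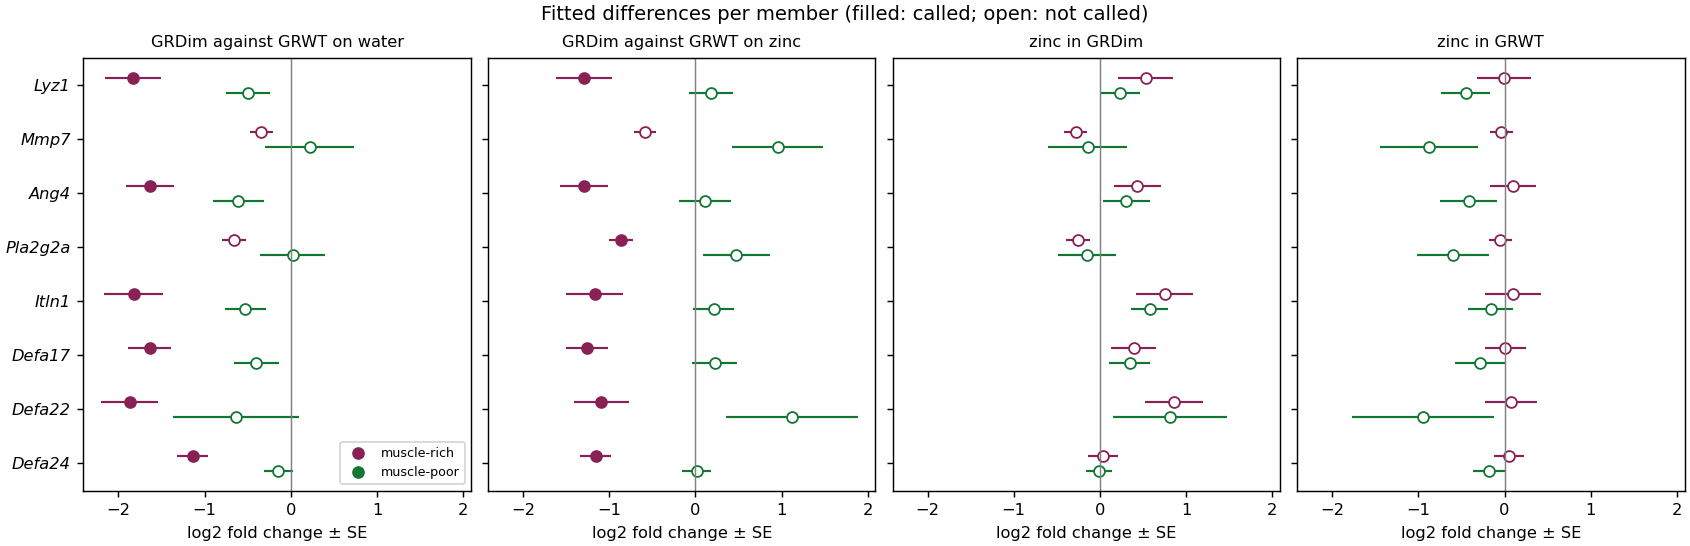
Log2 fold change ± SE of each member in 4 comparisons, for muscle-rich and muscle-poor libraries (colours), with filled points for called members. Filled points occur only for GRDim against GRWT among muscle-rich libraries, 6 on water and 7 on zinc.

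Whether zinc changed the members was asked within each genotype. In muscle-rich GRWT libraries 0 of 8 members were called by edgeR, 0 had an unadjusted p under 0.05 and DESeq2 called 0, beside 0.163% of all genes. The log2 fold changes ran from −0.05 to 0.10, with SEs of 0.13 to 0.33, and the ranges of water and zinc overlapped for all 8. Lyz1, for example, had a mean of 3936 ± 544 CPM on water and 3883 ± 752 CPM on zinc (SD, n = 3 each). Defa24 had 1781 ± 243 and 1831 ± 151 CPM. The zinc transporter Slc30a2, by contrast, had 76.2, 76.6 and 94.8 CPM on water and 270.4, 294 and 308 CPM on zinc, a log2 fold change of 1.83 ± 0.16 (edgeR adjusted p = 0.0013). This transporter loads zinc into the same granules that hold the member proteins.

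In muscle-rich GRDim libraries 0 of 8 members were called for zinc by edgeR, 1 had an unadjusted p under 0.05 and DESeq2 called 0, beside 1.33% of all genes. Lyz1 had 1007, 1142 and 1179.8 CPM on water and 869, 1560.2 and 2254 CPM on zinc. On zinc, ileum replicate 1 was about as high as muscle-poor libraries, replicate 2 was intermediate and replicate 3 was below every library on water. Such a spread gave 0.53 ± 0.32 (edgeR adjusted p = 0.376). Defa22, the member with the lowest p-value here, had 13.9, 25.0 and 39.1 CPM on zinc and changed by 0.86 ± 0.34 (edgeR adjusted p = 0.178). Itln1 had 236, 495 and 665 CPM on zinc and changed by 0.75 ± 0.33 (edgeR adjusted p = 0.232).

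Ang4, at 0.43 ± 0.28, and Defa17, at 0.39 ± 0.26, had the same replicate order in the GRDim zinc libraries, and Defa24 was at 0.04 ± 0.18. Mmp7 and Pla2g2a had the opposite sign, at −0.28 ± 0.13 and −0.26 ± 0.14, and for both every library on zinc was below every library on water. Their edgeR adjusted p-values were 0.250 and 0.298. The scatter among zinc libraries ran beside several marker lists. In replicates 1, 2 and 3 the ileal segment markers summed to 11073, 9899 and 6692 CPM and the proximal ones to 469, 453 and 347 CPM. In the opposite order, smooth muscle markers summed to 1629.9, 1839.7 and 2142 CPM and myeloid markers to 209, 239.8 and 284 CPM. The part of these lists was not tested. Without replicate 3, edgeR called 3 members higher on zinc, Lyz1 at 0.83 (adjusted p = 0.0332), Itln1 at 1.08 (adjusted p = 0.0041) and Defa22 at 1.17 (adjusted p = 0.0097), beside 1.88% of all genes in that fit. The absence of calls in these 3 members thus depended on that library. Slc30a2 had 45.7, 50.5 and 58.1 CPM on water and 142, 166 and 209 CPM on zinc in GRDim, a log2 fold change of 1.77 ± 0.16 (edgeR adjusted p = 0.0006).

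The difference of the zinc effect between the genotypes was tested as an interaction. Among muscle-rich libraries 0 members were called by edgeR on the adjusted p-value alone, 0 had an unadjusted p under 0.05 and DESeq2 called 0, beside 0.263% of all genes. The tissue label changed with zinc in GRDim and not in GRWT, so that its part in this interaction cannot be told apart. The interaction values ran from −0.24 ± 0.19 for Mmp7 to 0.78 ± 0.46 for Defa22 on the log2 scale.

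The same questions were asked of the 10 muscle-poor libraries. On water, 0 members were called between GRDim and GRWT by edgeR, 0 had an unadjusted p under 0.05 and DESeq2 called 0, beside 0.0288% of all genes. Lyz1 had 1775 and 2569 CPM in GRWT and 1371, 1722 and 1845 CPM in GRDim. The ranges overlapped, and the log2 fold change was −0.50 ± 0.26 (edgeR adjusted p = 0.933). Ang4 had 310.0 and 385 CPM in GRWT and 213, 244 and 275 CPM in GRDim, Itln1 585 and 743 against 406, 537 and 538 CPM, and Defa22 27.6 and 38.3 against 20.4, 22.8 and 25.0 CPM. In these 3 genes every GRDim library was below every GRWT library, with log2 fold changes of −0.61 ± 0.30, −0.53 ± 0.24 and −0.64 ± 0.73 (edgeR adjusted p = 0.932, 0.896 and 0.985). The other 5 members overlapped, and the share of all genes without overlap was not counted. Defa24 was at −0.15 ± 0.17, Defa17 at −0.40 ± 0.26, Mmp7 at 0.22 ± 0.51 and Pla2g2a at 0.02 ± 0.38. Without GRWT zinc ileum replicate 3, which shares the fit, 0 members were again called, but Ang4, at −0.61 ± 0.14 (edgeR adjusted p = 0.0493), passed the p-value cut-off alone, and Defa22 and Itln1 were at adjusted p = 0.0574 and 0.0686.

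Zinc in muscle-poor GRDim libraries left 0 members called by edgeR, with 1 at an unadjusted p under 0.05 and 0 called by DESeq2, beside 0.0575% of all genes. That member was Itln1, which had 406, 537 and 538 CPM on water and 655, 732 and 792 CPM on zinc, higher in each zinc library, with 0.58 ± 0.21 (edgeR adjusted p = 0.562). Defa22 had 20.4, 22.8 and 25.0 CPM on water and 33.1, 38.3 and 46.7 CPM on zinc, without overlap, and was at 0.81 ± 0.66 (edgeR adjusted p = 0.869). When GRWT zinc ileum replicate 3, which shares the fit, was left out, Defa22 was called at 0.81 (edgeR adjusted p = 0.0112), and Itln1, at 0.58 (adjusted p = 0.0252), stayed under the fold cut-off, beside 1.43% of all genes called in that fit. Defa24 stayed at −0.02 ± 0.15 and Lyz1 was at 0.23 ± 0.23.

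In muscle-poor GRWT libraries each condition held 2 libraries, and 1 of the zinc libraries was the proximal-like replicate 3. There Defa22 was at 1.23 CPM and Mmp7 at 15.7 CPM, against 32.5 and 118 CPM in the other zinc library. Lyz1 was at 889.9 against 1925 CPM and Defa24 at 674 against 995 CPM, so the members were not equally low in it. For zinc in GRWT, 0 members were called by edgeR, 0 had an unadjusted p under 0.05 and DESeq2 called 0, beside 0.0431% of all genes, with log2 values from −0.95 to −0.16. Without replicate 2, which leaves replicate 3 alone on zinc and assumes that it varies like the other groups, 4 members were called, beside 30.1% of all genes in that fit. Without replicate 3, 0 members were called, and the values ran from −0.21 ± 0.28 for Lyz1 to 0.16 ± 0.19 for Itln1, with Defa22 at −0.06 and Mmp7 at −0.14, where they had been at −0.95 and −0.87. Lyz1 had been at −0.45, and Defa24 hardly moved, from −0.18 to −0.19. For GRDim against GRWT on zinc, where the genotype and the tissue label cannot be told apart, 0 members were called by edgeR, 0 had an unadjusted p under 0.05 and DESeq2 called 0, beside 0.0575% of all genes, and 4 were called when GRWT zinc replicate 2 was left out, beside 31.4% of all genes in that fit. Without replicate 3 there were 0, and the values ran from −0.35 for Ang4 to 0.23 for Defa22, where with it they ran from 0.02 to 1.12. The interaction of zinc with genotype gave 0 members by edgeR, 0 at an unadjusted p under 0.05 and 0 by DESeq2, beside 0% of all genes. It gave 6 without replicate 2, beside 39.3% of all genes, and 0 without replicate 3.

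The sides were then set against each other. Across all 22 libraries with the condition as a term, 0 members were called between muscle-rich and muscle-poor by edgeR, 1 had an unadjusted p under 0.05 and DESeq2 called 0, beside 24.4% of all genes. That member was Defa17, at −0.52 ± 0.20 (edgeR adjusted p = 0.0328), under the fold cut-off, and at 0.03 when libraries were scaled to epithelial markers. Without GRWT zinc ileum replicate 3, 0 members were called as well, and Defa17 was at −0.65 ± 0.20 (edgeR adjusted p = 0.0076). Muscle-rich GRWT libraries lay above all of the 16 other libraries for 5 of 8 members. For Lyz1 their lowest level was 3019 CPM, and the highest of the others was 2569 CPM. Ang4, Pla2g2a, Itln1 and Defa24 had the same order, and the share of all genes that have it was not counted. The 6 muscle-rich GRWT libraries also stood apart in Pigr, the receptor that carries immunoglobulin A across the epithelium, with 2067 to 2705 CPM, against 5032 to 10247 CPM in the others. Whether what sets these libraries apart in Pigr also bears on the members was not tested.

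Whether the genotype difference on water itself differed between the sides was tested as an interaction, also added after the data had been seen. Only Defa24 was called, at −1.01 ± 0.24 (edgeR adjusted p = 0.0448), beside 1.31% of all genes. All 8 members had a more negative value among muscle-rich libraries, and 5 had an unadjusted p under 0.05. Lyz1 was at −1.35 ± 0.41 (edgeR adjusted p = 0.142), Itln1 at −1.32 ± 0.42 (adjusted p = 0.161), Defa17 at −1.26 ± 0.37 (adjusted p = 0.125) and Ang4 at −1.04 ± 0.41 (adjusted p = 0.301). For the other 7 members, then, the genotype difference on water, called or not, was not shown to differ between the sides. Without GRWT zinc ileum replicate 3, Defa24 was again the only member called, at −1.02 (edgeR adjusted p = 0.0224), beside 7.11% of all genes.

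The rest of the alpha-defensin family was followed as a list of 36 further genes, of which 13 passed the filter among muscle-rich libraries. On water 12 of these 13 were called lower in GRDim, beside 10.5% of all genes tested. The median of the 13 was −1.64, against −0.00 over all genes. On zinc 6 were called lower, beside 4.4% of all genes. Defa23 had 7.73, 8.08 and 10.2 CPM in GRWT and 3.32, 3.33 and 3.47 CPM in GRDim on water, a log2 fold change of −1.36 ± 0.23 (edgeR adjusted p = 0.0003). Defa5 was at −1.21 ± 0.25, Defa34 at −2.17 ± 0.44, and the pseudogenes Defa-ps1, Defa-ps6 and Defa-ps7 at −2.82 ± 0.60, −1.70 ± 0.38 and −2.61 ± 0.61. How much of these genes could be counted varied, since their own 75-base windows made up 2.65% of Defa5, 10.1% of Defa23 and 22.9% of Defa34, but 60.1% of Defa-ps1, 61.5% of Defa-ps6 and 84.0% of Defa-ps7. Among muscle-poor libraries 10 passed the filter and 0 were called on water by edgeR, with 1 at an unadjusted p under 0.05.

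**Figure D5:**
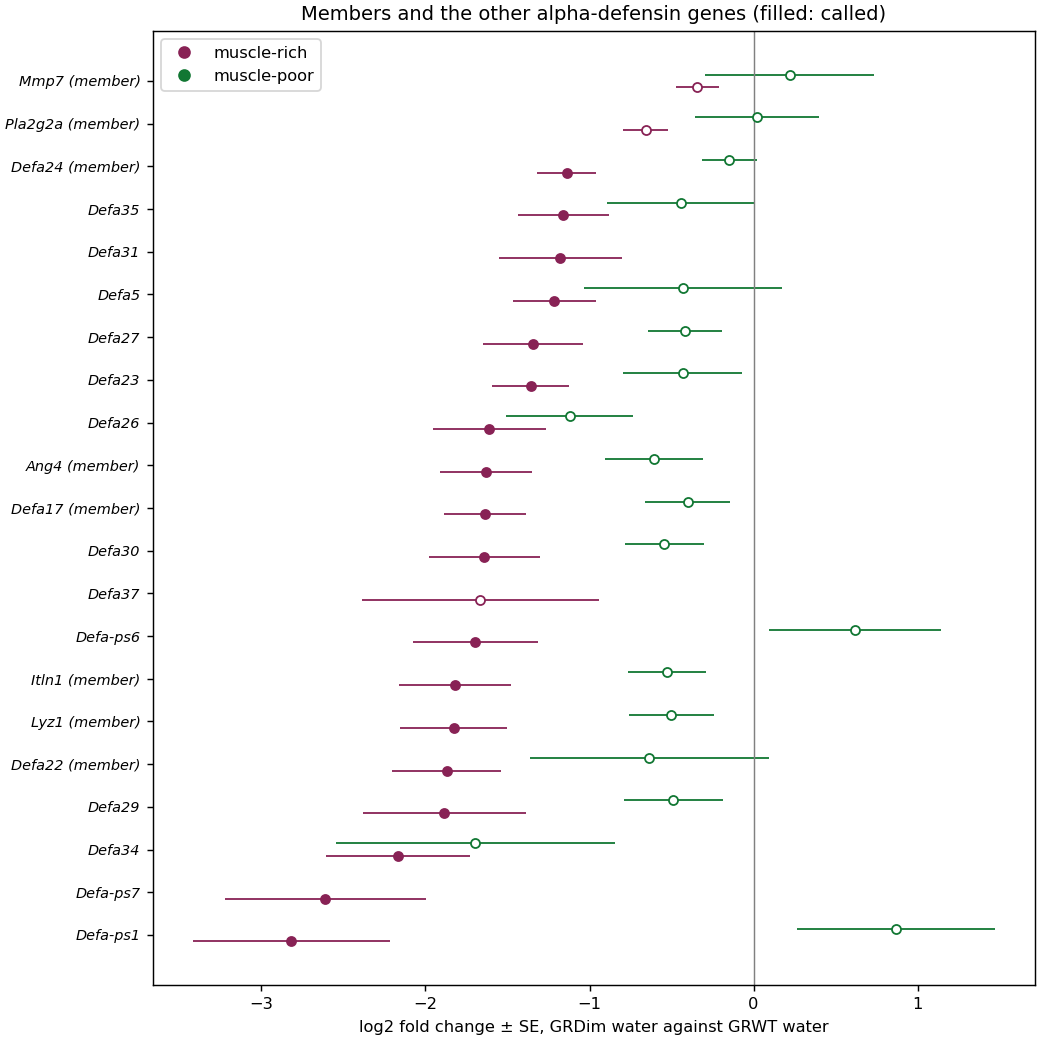
Log2 fold change ± SE of GRDim against GRWT on water for the 8 members and the 13 other tested alpha-defensin genes, for muscle-rich and muscle-poor libraries (colours), with filled points for called genes. Among muscle-rich libraries 12 of the 13 others and 6 members are filled, and no muscle-poor point is.

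Of 12 other secreted products of Paneth cells and their neighbours, 4 were called lower and 2 higher in muscle-rich GRDim on water. Of all genes tested, 10.5% were called there. Reg3a, an antibacterial lectin, had 132, 149.5 and 209.6 CPM in GRWT and 34.8, 48.5 and 63.1 CPM in GRDim, a log2 fold change of −1.75 ± 0.27 (edgeR adjusted p = 0.0012). Clps, colipase, and Pnliprp2, a lipase of the pancreatic lipase family, fell by 2.39 and 2.66 on the log2 scale, with SEs of 0.29 and 0.28, and AY761184, the last of the 4, fell by 2.67 ± 0.56. Reg3g, another antibacterial lectin, went the other way. It had 1536, 1548 and 1962 CPM in GRWT and 2644, 3219 and 4245 CPM in GRDim, a log2 fold change of 1.00 ± 0.21 (edgeR adjusted p = 0.0043), and it was called lower in GRDim libraries on zinc, which had 1036 to 1158 CPM, at −1.61 ± 0.21 (adjusted p = 0.0030), where zinc and the tissue label cannot be told apart. Pigr, which is made across the epithelium, was the other gene called higher, at 1.32 ± 0.08 (edgeR adjusted p = 3.1e-08).

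Of 18 genes of Paneth cell differentiation and function, 2 were called lower and 1 higher in the same comparison, beside 10.5% of all genes. Wnt3, the Wnt ligand that Paneth cells offer to stem cells, had 3.51, 4.55 and 4.73 CPM in GRWT and 1.28, 1.497 and 2.32 CPM in GRDim, a log2 fold change of −1.33 ± 0.28 (edgeR adjusted p = 0.0019). Habp2, a secreted serine protease, had 15.3, 18.6 and 23.3 CPM in GRWT and 4.49, 4.56 and 5.24 CPM in GRDim, a log2 fold change of −1.999 ± 0.30 (edgeR adjusted p = 0.0005). Nod2, the intracellular sensor of bacterial muramyl dipeptide, had 2.01, 2.04 and 2.69 CPM in GRWT and 4.75, 4.78 and 5.47 CPM in GRDim, a log2 fold change of 1.15 ± 0.20 (edgeR adjusted p = 0.0003). The groups did not overlap for any of these 3 genes. Of 5 stem cell markers 0 were called by edgeR, and 3 had an unadjusted p under 0.05. Among the proximal markers 3 were called lower, Rbp2, Cybrd1 and Adh6a, and the list summed to 307 to 380.0 CPM in GRDim, against 427 to 509 CPM in GRWT, without overlap.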

How the data were processed

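Total RNA of 22 libraries, stranded and single-end, was measured. The authors trimmed reads with Trimmomatic, aligned them to mm10 with HISAT2 2.0.4 and counted them per Ensembl gene with featureCounts, in which multimapping reads were not used; the deposited values are raw counts without normalization. The annotation release and strand setting are not given in the sources used here, so overlapping and antisense genes are uncertain. For GRDim water ileum, a column name occurs more than once, and those libraries are called unnumbered. Gene names, positions and transcripts came from GENCODE vM21.

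Groups came from the labels. Libraries over 100 CPM of Myh11 were muscle-rich. Within each side, edgeR 4.0.16 in R 4.3.3 was run on the counts with TMM scaling, filterByExpr, robust quasi-likelihood F tests on the 4 condition means and Benjamini-Hochberg adjustment over all genes tested, at 0.05 and, except for interactions, a log2 fold change beyond 0.8. SEs were derived from the F statistic. Fits were run on simulated data with the same spread for every gene and no outlying library, so the simulation does not cover such libraries. Alternatives were DESeq2 1.42.0, its size factors, no filter, scaling to epithelial markers, a replicate block, all libraries with the muscle split or the tissue label as covariate, and leaving out each library.

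The members and lists were chosen with earlier results of these data known. All members were named; of the marker lists and other Defa genes, those called within a side were named, at most 6 a list. The planned comparison of proteins was not run. Floors cover counting error only.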

Additional observations from a re-analysis of the deposited data

Results flagged for a closer look

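Among the 5 GRWT zinc libraries, ileum replicate 3 lay far from the others in 3 members. It held 15.7 CPM of Mmp7, with 118 to 189.7 CPM in the other 4, 34.7 CPM of Defa17, with 86.2 to 120 CPM, and 1.23 CPM of Defa22, with 32.5 to 59.1 CPM. Dixon's test at the 95% level was applied to 32 groups of values, and chance alone would set apart about 1 in 20 of them. Defa24 differed between muscle-rich and muscle-poor libraries in its genotype effect on water, by −1.01 on the log2 scale.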

How the results depend on the processing

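Of 1336 member values under the alternatives, 57 lost the threshold, 30 gained it, 15 reversed and 1234 did none of these. A sign change was counted as a reversal where the main value was called or exceeded its SE, or the new value was called, and 95 of the 1234 changed sign without that. In muscle-rich libraries, the members called for GRDim against GRWT on water fell from 6 to 2, and the genes from 1673 to 217, with all libraries and the tissue label as covariate (genes 931 with the muscle split, and 533 with the tissue label without GRWT zinc ileum replicate 3). On zinc, members went from 7 to 0 with either covariate, and genes from 702 to 18 with the tissue label, and to 403 and 23 with the muscle split and the tissue label without that library; Mmp7 moved to 0.031 and 0.0048. For zinc in GRDim, genes went from 212 to 91 and 12, for zinc in GRWT from 26 to 13 with the tissue label, and for the interaction from 42 to 0 and 0, with Mmp7 at 0.10 and 0.083 and Pla2g2a at 0.039 and 0.011. DESeq2, no filter and epithelial scaling gave 307, 269 and 142 genes for that interaction. Scaling to epithelial markers moved Itln1 to 0.24 and Defa17 to 0.026 between the sides. The cause of these shifts was not tested.

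In muscle-poor libraries, GRDim against GRWT on water gave 4 genes, but 46 with DESeq2, 11 without a filter, and 931 and 217 with the muscle split and the tissue label, where 4 and 2 members were called. On zinc, 8 genes became 738, 15, 628 and 18, with Pla2g2a at −0.31 and −0.38 and Defa22 at −0.26 and −0.26 under the covariates. Zinc in GRWT gave 6 genes, then 435, 16, 10 (epithelial scaling), 26 and 13, and zinc in GRDim 8, then 75, 24, 18 and 91. The interaction gave 0, then 3 (DESeq2) and 1 (no filter).

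Leaving out 1 library, genes called ranged, among muscle-rich libraries, from 12 to 37 for zinc in GRWT, 110 to 304 for zinc in GRDim and 5 to 346 for the interaction, and members from 0 to 3 for zinc in GRDim and 3 to 7 for genotype on zinc. Among muscle-poor ones, genes ranged from 2 to 4365 for zinc in GRWT (Ang4 −1.13 to 0.0496), 3 to 205 for zinc in GRDim, 2 to 138 for genotype on water, 0 to 5702 for the interaction and 3 to 4551 for genotype on zinc (Pla2g2a −0.082 to 1.44); members ranged from 0 to 4, 0 to 1, 0 to 0, 0 to 6 and 0 to 4. The genotype effect by side gave 1199 genes without GRWT zinc ileum replicate 3.

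Same-numbered GRWT libraries on water and zinc did not deviate together, with correlations of 0.06, −0.11 and −0.08 among muscle-rich and −0.00 among muscle-poor libraries, so the numbers did not pair them. With a replicate block, muscle-rich members called were 4 for zinc in GRDim, 2 for the interaction (Mmp7 at 0.033) and 2 for genotype on zinc, and genes 123 for zinc in GRDim and 262 for genotype on zinc; muscle-poor zinc in GRWT gave 0 genes. Among muscle-poor libraries the block could be fitted for that comparison only. Among muscle-rich ones, replicate numbers 2, 3 and 6 each occurred in 1 library, which the block fits exactly. With the block, GRDim on zinc thus rested on ileum replicate 1 alone, with 2254 CPM of Lyz1, against 1560.2 and 869 in replicates 2 and 3. The muscle-rich block counts for zinc in GRDim, the interaction and genotype on zinc therefore cannot decide these comparisons.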

Other observations

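The genes whose pattern was most like that of the members were sought over the 22 libraries, with log2 CPM centred within each side, by their Pearson correlation with the mean of the 8 members. These values are descriptions across libraries that share conditions and depth, and no test was made. The 10 highest were Habp2 (0.97), Defa30 (0.97), Rnase4 (0.95), Upk1b (0.94), Pla2g2f (0.93), Ang (0.93), Defa27 (0.91), Tmed6 (0.90), Defa35 (0.90) and Nr0b2 (0.90). Rnase4 and Ang are ribonucleases of the same family as Ang4, Pla2g2f is another secreted phospholipase, and Nr0b2 is a nuclear receptor induced by bile acids. Rnase4 had 192, 201 and 209 CPM in muscle-rich GRWT libraries on water and 85.3, 92.7 and 93.2 CPM in GRDim ones. Nr0b2 had 9.76, 14.3 and 18.2 CPM in the same GRWT libraries and 0.195, 0.290 and 0.354 CPM in the GRDim ones, close to the floor of 3 counts. Of the members themselves, which are part of that mean, Ang4 was at 0.97 and Mmp7, the lowest, at 0.70. Without GRWT zinc ileum replicate 3 the order changed, with Lyz1 at 0.987, Defa17 at 0.985 and Ang4 at 0.984, Mmp7 still lowest at 0.71, and Defa30 (0.985) and Defa27 (0.973) above Habp2 (0.962).

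Lyz2, the lysozyme of macrophages, had 119 to 279 CPM in muscle-rich libraries and 8.22 to 15.62 CPM in muscle-poor ones, so that it followed the muscle content. Lyz1 on water differed between the sides in opposite directions by genotype. In GRWT it had 3477 to 4537 CPM in muscle-rich libraries and 1775 to 2569 CPM in muscle-poor ones. In GRDim it had 1007 to 1179.8 CPM and 1371 to 1845 CPM.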
